A study of Mus musculus with 28 samples.

Results

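Wild-type (WT) mouse cortex was compared between embryo and adult. The comparison uses 12 of the 28 libraries of the series: 6 from prefrontal cortex (PFC) of adult animals and 6 from cortex of embryos at E14.5, in mid-gestation. Genes were taken where both of the authors' expression tables list them, joined by Ensembl identifier, which gave 13071 genes of the 13846 listed for E14.5 and the 14104 listed for PFC. The series used RNA sequencing to follow what loss of Myt1l, a zinc-finger transcription factor of neurons, does in developing and adult cortex. The animals described here carry the label WT and no knockout allele, and no treatment is named. The labels give 3 females and 3 males among the adults and 5 females and 1 male among the embryos, and summed Y-linked transcripts fitted the labelled sex for 12 of 12 libraries. Strain, adult age and litter are not named in the labels. Each library carries an identifier of its own, and most share its first part, a prefix, with other libraries of their age. Whether the identifier names a single animal, and what the prefix stands for, is not stated. Heterozygous (Het) libraries, from animals with 1 knockout allele, served as a second set of 6 adults and 6 embryos.

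In the embryonic cortex, radial glia divide along the ventricle and give rise to intermediate progenitors and to neurons, which migrate outward into layers. Neurons of this age have begun to extend axons, while most synapses, astrocytes, oligodendrocytes and myelin form after birth. The adult prefrontal cortex holds mature excitatory and inhibitory neurons, glia and vessels, with very few dividing cells.

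Levels are given as CPM, reads of a gene relative to all reads of the library (counts per unit of library total) as the authors normalised them, and differences as adult minus embryo on the log2(CPM + 0.5) scale, where low genes show less than their full fold. The authors normalised the adult and embryonic tables separately, so no test was made across them and no p-value is given. A gene was called higher in 1 group where the group means differed by at least 4-fold (2 on the log2 scale), every library of that group lay above every library of the other, and the gene's percentile rank within each library separated the groups in the same direction. Age, region (whole cortex against its prefrontal part) and table cannot be told apart. In bulk tissue, fewer cells of a type and less RNA per cell cannot be told apart either.

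Adult and embryonic cortex differed by a large margin in 25.7% of the genes (3364 of 13071). Of these, 2358 genes (18.0% of those compared) were called higher in adult PFC and 1006 (7.70%) higher in E14.5 cortex. The median difference over all genes was 0.26, with quartiles of −0.77 and 1.47, and 5978 genes (45.7%) differed by less than 2-fold. Differences of at least 16-fold (4 on the log2 scale) were called for 588 genes in the adult direction and 145 in the embryonic one. Libraries of 1 age were alike, with Spearman correlations across genes of 0.988 to 0.993 among adults and 0.986 to 0.992 among embryos. Across ages, the same correlation was 0.642 to 0.663. The typical spread between libraries was small beside the 4-fold minimum, with a median SD of 0.14 among adults and 0.15 among embryos for genes of at least 5 CPM. The authors had removed unwanted variation separately in each table. These correlations and SDs, and the SDs and SEs below, therefore describe what was left after that step.

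How the calls divide between the ages depends on the scaling. Of the calls, 70.1% were in the adult direction with the deposited scaling and 51.2% when each library was centred on the median of its shared genes, which moved the median gene to −0.21. With libraries scaled by cytosolic ribosomal protein genes, that share was 97.4% and the median gene stood at 2.53. The ribosomal protein genes were themselves higher in the embryo with the deposited scaling. Differences below are therefore to be read against the median gene at 0.26. Counts of called list members are to be read against the shares of all genes, 18.0% adult-high and 7.70% embryo-high. In Het animals, with other libraries of the same tables, 2207 genes (16.9%) were called higher in the adult and 915 (7.00%) higher in the embryo. Of the adult-high WT calls 89.0% were also called in Het, and these made up 95.1% of the Het calls. The corresponding shares of the embryo-high calls were 84.3% and 92.7%, and no gene was called in opposite directions.

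**Figure D1:**
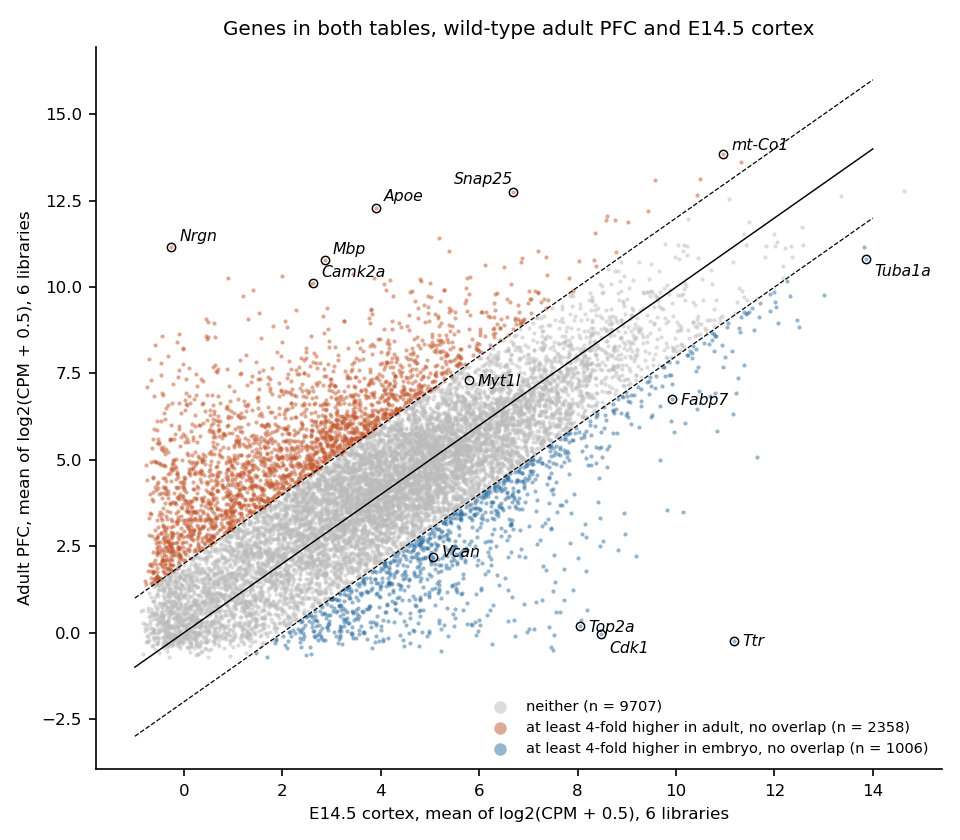
Mean level of each of the 13071 shared genes in the 6 E14.5 WT libraries (x axis) and the 6 adult PFC WT libraries (y axis), both as log2(CPM + 0.5). The solid line marks equal values and the dashed lines 4-fold differences; orange and blue points are the 2358 and 1006 called genes, and circled genes are described in the text.

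The largest adult-high differences included those of several genes of neurons. Nrgn, which encodes the postsynaptic calmodulin-binding protein neurogranin, differed by 11.43 (SE 0.17). Its level was 2223, 2303 and 2394 CPM at the lowest, median and highest of the 6 adults, against 0.102, 0.289 and 0.817 CPM in the embryos. Nrgn (ENSMUSG00000053310) lies on chromosome 9 from 37544492 to 37552904 on the minus strand of GRCm38. Igfbp6, Pacsin1 (a neuronal endocytosis protein), Cck (the neuropeptide cholecystokinin), Omg (a myelin glycoprotein also made by neurons), Calb1 (a calcium buffer), Faim2, Sncb (beta-synuclein), Hpcal4 (a neuronal calcium sensor) and Apoe (the main brain lipid carrier) were also among the largest 12, with differences from 8.93 down to 8.40. Apoe was the most abundant of them, at 5053 ± 401 CPM in adults and 16.1 ± 8.64 CPM in embryos (SD, n = 6 each). That every adult library exceeded every embryo library for each of these genes follows from the calling rule.

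The largest embryo-high differences were those of Ttr, Cdk1, Pimreg, Peg12, Top2a, Pbk, Tk1, Pclaf, Cdca3, Ube2c, Uhrf1 and Rrm2. Ttr encodes transthyretin, a product of the choroid plexus, and Peg12 is a paternally expressed gene. Cdk1, Top2a, Ube2c, Pbk, Cdca3 and Pimreg act in or are known from G2 and mitosis, and Tk1, Pclaf, Uhrf1 and Rrm2 from DNA synthesis and its chromatin. Apart from Ttr, at −11.43, they ran from −8.51 for Cdk1 to −6.98 for Rrm2. In all, 5 genes had at least 100 CPM in every embryo library and under 1 CPM in every adult library, namely Cdk1, Pimreg, Peg12, Tk1 and Uhrf1. The reverse held for 17 genes, among them Nrgn, Igfbp6, Pacsin1, Omg, Gabrd, Gfap and Mal.

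Genes of the dividing cell were the most uniformly embryonic group. Of 20 G2 and mitosis genes in both tables, 20 were called higher in the embryo and none in the adult, with a median difference of −6.07. Of 21 S phase genes, 16 were called higher in the embryo and none in the adult, with a median of −3.87. Both medians kept their sign under each scaling tried, at −3.80 and −1.60 with libraries scaled by ribosomal protein genes. Among all shared genes 7.70% were called in this direction.

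Cdk1, the kinase that drives entry into mitosis, was 326, 359 and 372 CPM at the lowest, median and highest embryo library and 0.0486, 0.591 and 0.783 CPM in the adults. Top2a, the topoisomerase that untangles chromosomes before division, was 245, 255 and 308 CPM in embryos and 0.392, 0.588 and 1.17 CPM in adults. The groups lay far apart for both genes, and adult levels stood close to the bottom of the measured range, where 3 steps of the recovered scale are worth 0.147 CPM. The other G2 and mitosis genes named by the largest differences were Ube2c, of the anaphase-promoting machinery (−7.05), and cyclin Ccnb2 (−6.96). The smallest difference of the list was −3.59. In S phase, Uhrf1, which guides maintenance DNA methylation to replicated DNA (−7.02), and Rrm2, a ribonucleotide reductase subunit (−6.98), led Mcm3, a subunit of the replicative helicase (−6.68), and Tyms, the enzyme of thymidylate synthesis (−6.40). Mcm3 was 198, 245 and 263 CPM in embryos and 1.02, 2.05 and 2.47 CPM in adults. E2f1, a transcription factor of the G1 to S step, stood at 16.8 ± 2.21 CPM in adults and 14.3 ± 2.03 CPM in embryos and was the only S phase gene with a positive difference (0.23). It was chosen for mention after its values were seen. A further 4 G2 and mitosis genes, Mki67, Aurkb, Bub1 and Bub1b, are in the E14.5 table alone, at 37.8 ± 6.35, 108 ± 12.0, 26.3 ± 2.47 and 117 ± 9.19 CPM, and were not compared.

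Because these genes differ in 1 direction, the sequence before their start sites was read. Motifs known from cell-cycle promoters were searched on both strands in the 250 bases before the RefSeq start: the CCAAT box (CCAAT), the cell-cycle homology region or CHR (TTTGAA) and 2 E2F-type motifs (TTTCCCGC and TTTGGCGC), none of whose letters contain another. A further 4 motifs (the TATA box, TATAAA; the cyclic AMP response element, TGACGTCA; a MYT1-type motif, AAAGTTT; and an E-box, CAGATG) were searched the same way and are not described. Windows for 4 of the genes with the largest differences that hold at least 1 of these motifs are shown, from RefSeq on GRCm38.p6, 5′ to 3′ on the gene's strand, with motif matches on either strand in capitals.
Cdk1: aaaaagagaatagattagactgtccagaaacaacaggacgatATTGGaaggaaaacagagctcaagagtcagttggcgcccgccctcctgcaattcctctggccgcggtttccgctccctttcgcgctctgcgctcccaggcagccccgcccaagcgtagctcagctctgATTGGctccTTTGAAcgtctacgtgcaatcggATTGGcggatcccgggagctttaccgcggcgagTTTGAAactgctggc
Top2a: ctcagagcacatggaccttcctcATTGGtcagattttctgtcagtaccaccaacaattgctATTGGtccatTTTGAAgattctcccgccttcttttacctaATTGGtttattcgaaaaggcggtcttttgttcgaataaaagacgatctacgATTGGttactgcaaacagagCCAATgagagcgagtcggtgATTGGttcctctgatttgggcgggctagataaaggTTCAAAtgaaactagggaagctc
Uhrf1: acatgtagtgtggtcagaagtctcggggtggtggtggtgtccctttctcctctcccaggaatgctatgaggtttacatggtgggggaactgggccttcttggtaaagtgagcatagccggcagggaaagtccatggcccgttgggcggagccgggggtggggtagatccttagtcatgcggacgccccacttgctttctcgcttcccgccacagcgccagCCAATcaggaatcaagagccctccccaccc
Rrm2: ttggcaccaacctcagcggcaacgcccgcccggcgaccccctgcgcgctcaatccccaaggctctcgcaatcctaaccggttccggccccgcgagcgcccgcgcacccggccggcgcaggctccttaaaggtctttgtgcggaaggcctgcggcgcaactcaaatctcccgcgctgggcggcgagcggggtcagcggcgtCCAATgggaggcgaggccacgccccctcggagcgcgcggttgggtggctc
The windows are chr10:69352913-69353162 (minus strand), chr11:99024190-99024439 (minus strand), chr17:56303087-56303336 (plus strand) and chr12:24708004-24708253 (plus strand). They are upstream flank by RefSeq, and the last 26 bases for Cdk1, 16 for Uhrf1 and 13 for Rrm2 fall inside the gene as GENCODE vM21 draws it. Cdk1 holds 3 CCAAT boxes and 2 CHR matches, Top2a 6 and 2, and Uhrf1 and Rrm2 a single CCAAT box each.

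A window was found for 18 of the 20 G2 and mitosis genes and 17 of the 21 S phase genes. The CCAAT letters stood in 14 of 18 G2 and mitosis windows (77.8%) and 12 of 17 S phase windows (70.6%), against 34.5% of the 27007 RefSeq promoters and 36.6% of the 10391 shared genes with a window. The CHR letters stood in 8 of 18 (44.4%) and 2 of 17 (11.8%), against 16.3% of all promoters and 10.3% of shared genes. Either E2F-type motif stood in 4 of 17 S phase windows (23.5%) and in 0 of 18 G2 and mitosis windows, against 1.36% of all promoters and 2.57% of shared genes. These are counts of letters in a short window, not of bound sites. For the called genes as a whole a window was found for 77.0% (adult) and 78.5% (embryo). Their motif shares were computed but are not described, because coverage was under 80%, a minimum that the planned comparison did not include. The shared genes used here for reference, at 79.5%, were also just under it.

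Progenitor genes were mostly on the embryonic side, with exceptions. Of 12 intermediate progenitor genes, 7 were called higher in the embryo and 2 in the adult, or 1 with libraries centred on their median and in Het libraries, with a median of −2.92. Eomes, the T-box factor that defines these cells, was 66.6, 77.2 and 85.4 CPM in embryos and 0.146, 0.319 and 0.489 CPM in adults, the latter around the floor of the scale. Mfap4 (−5.96), the Notch-modifying glycosyltransferase Mfng (−4.55) and the zinc-finger factor Insm1 (−3.96) followed. The adult-high members were Dll3 (2.21), a Notch ligand family member, and the neuropeptide gene Tac2 (3.05), both named after their values were seen.

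Of 20 radial glia genes, 8 were called higher in the embryo and none in the adult, and the list median was −1.56, which turned to 0.71 with libraries scaled by ribosomal protein genes. The intermediate filament genes Nes (−5.56) and Vim (−3.79), the receptor Notch1 (−4.29) and the homeobox gene Lhx2 (−3.97) led. Nes was 62.5, 76.3 and 79.0 CPM in embryos and 0.495, 1.05 and 1.81 CPM in adults. Several genes of this list are also made by adult astrocytes, and Slc1a3, a glial glutamate transporter, was not called, at 557 ± 42.5 CPM in adults and 145 ± 13.2 CPM in embryos.

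Among signalling pathways that keep progenitors dividing, of 15 Notch pathway genes, 5 were called higher in the embryo and 3 in the adult, and the median was −1.40 (0.87 with ribosomal protein scaling). The 3 adult-side calls became 0 with libraries centred on their median, where 7 were embryo-high, and 1 in Het libraries. The receptors Notch1 (−4.29), Notch2 (−3.02) and Notch3 (−2.32) and the ligand Dll1 (−2.72) were all embryonic. Of 15 Wnt pathway genes, 4 were called higher in the embryo and 1 in the adult, with a median of −1.17 (1.10 with ribosomal protein scaling). The secreted Wnt inhibitor Sfrp1 was 7.75 ± 1.65 CPM in adults and 176 ± 8.51 CPM in embryos, and Tcf7l1 (−3.85) and the receptor Fzd1 (−3.31) were also embryonic. Dkk3 was the adult-high member, at 503 ± 36.7 CPM against 36.9 ± 5.70 CPM.

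Newborn neuron genes were called embryo-high more often than all genes, of which 7.70% were. With the deposited scaling the share was 46.2% for early neuronal factors and 38.9% for genes of migration and immature neurons. Most of the others were not called. Of 13 proneural and early neuronal factors, 6 were called higher in the embryo and none in the adult (median −1.64, or 0.63 with ribosomal protein scaling). Sox11, an HMG-box factor of immature neurons, was 2900, 3154 and 3606 CPM in embryos and 27.4, 34.4 and 39.2 CPM in adults. Nfib (−3.30), Nfix (−2.78) and Neurod1 (−2.91) followed.

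Of 18 genes of migration and immature neurons, 7 were called higher in the embryo and 2 in the adult, or 1 with libraries centred on their median (list median −1.63, or 0.64 with ribosomal protein scaling). Dcx, the microtubule-binding doublecortin of migrating neurons, was 145, 154 and 170 CPM in embryos and 5.69, 7.83 and 11.7 CPM in adults. The surface glycoprotein gene Cd24a (−6.11), Nrep (−4.82) and Dpysl3, a growth cone protein (−4.67), led the list. Dclk1, a relative of Dcx, went the other way, at 386 ± 18.1 CPM in adults and 69.0 ± 6.39 CPM in embryos, as did Stmn3 (2.43). These last genes were named after their values were seen.

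**Figure D2:**
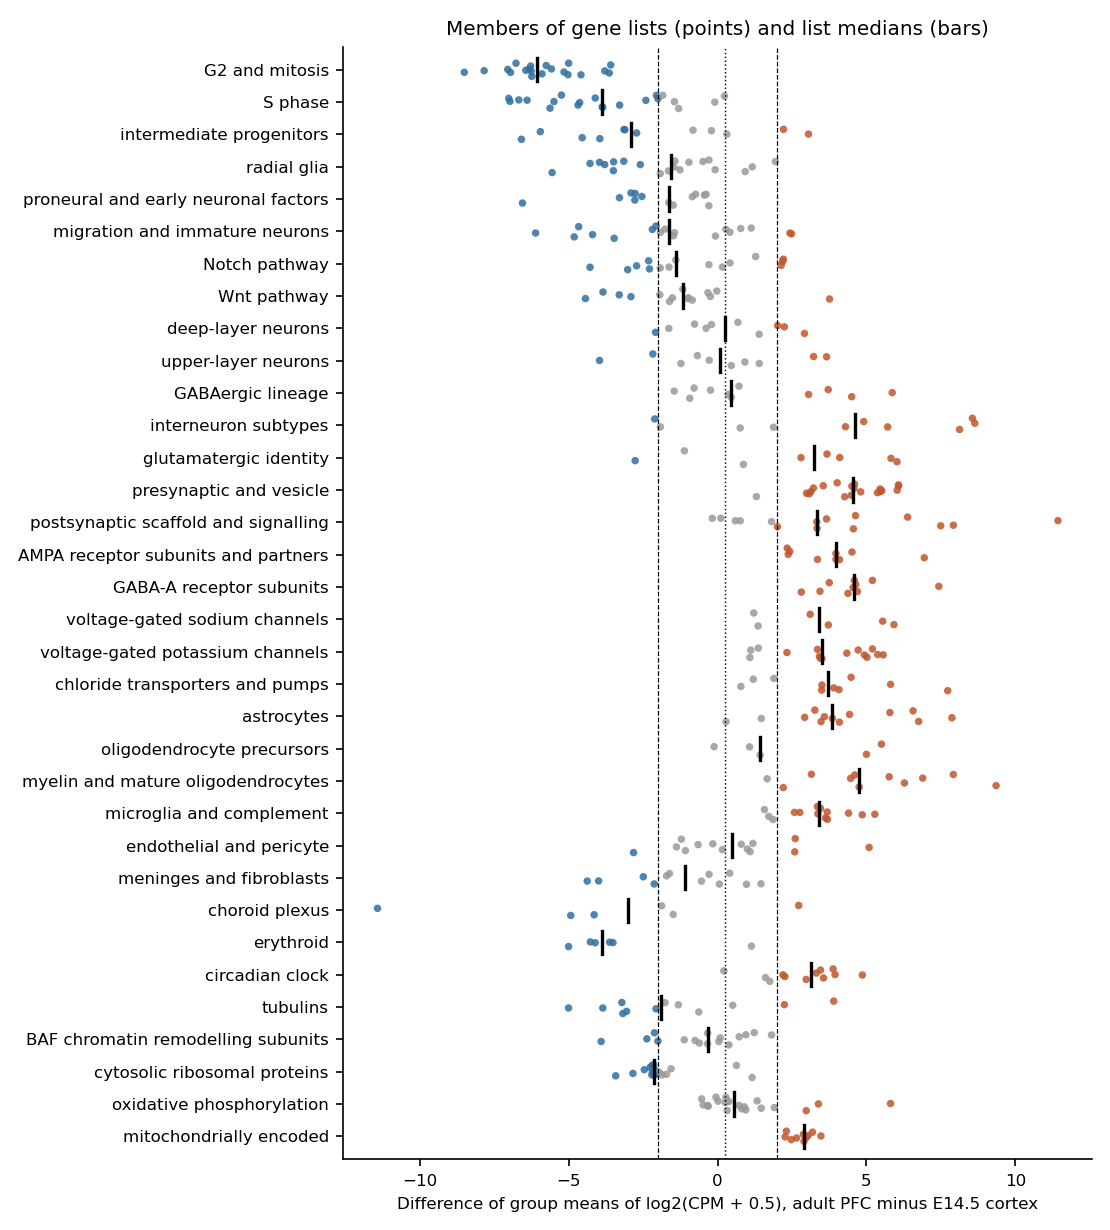
Difference of group means of log2(CPM + 0.5), adult PFC minus E14.5 cortex, for each gene (point) of 34 gene lists, with list medians as black bars; the dotted line is the median of all shared genes (0.26) and dashed lines are 4-fold. Orange points were called higher in adult and blue ones higher in embryo; the G2 and mitosis list lies wholly on the embryonic side and the AMPA and GABA-A receptor lists wholly on the adult side, while the medians of 15 of all 48 lists change sign when libraries are scaled by ribosomal protein genes.

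Layer identity genes showed no common direction. Of 10 deep-layer genes, 3 were called higher in the adult and 1 in the embryo (median 0.24), and of 10 upper-layer genes, 2 each way (median 0.09). The deep-layer counts were 1 and 2 with libraries centred on their median, and 1 and 0 in Het libraries. Both medians turned negative with libraries centred on their median, at −0.23 and −0.38. The deep-layer factor Bcl11b was 20.2, 24.5 and 28.8 CPM in adults and 90.9, 106 and 127 CPM in embryos, a difference of −2.09, or 0.19 with ribosomal protein scaling. Pcp4 (2.92), Nr4a2 (2.24) and Crym (2.01) were the adult-high deep-layer genes, of which Nr4a2 (1.77 and 1.84) and Crym (1.54 and 1.87) were under the 4-fold minimum with centring and in Het libraries. In the upper-layer list, Mef2c (3.22) and the layer 4 receptor gene Rorb (3.66) were adult-high, and Lhx2 (−3.97) and Pou3f3 (−2.18) embryo-high. The cortical factors Emx2 and Tbr1, both named after their values were seen, were present at both ages and not called. Their means were 8.28 and 26.4 CPM in adults and 16.5 and 34.4 CPM in embryos.

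Synapse genes were on the adult side. Of 35 pre- and postsynaptic genes, 29 were called higher in the adult and none in the embryo, against 18.0% of all genes. In the presynaptic list it was 19 of 20, with a median of 4.55. The exception was Bsn, a scaffold of the active zone, with a difference of 1.30. Snap25, a core SNARE protein of vesicle fusion, was 6531, 6945 and 7196 CPM in adults and 89.4, 103 and 114 CPM in embryos. Vamp1 (6.08), a vesicle SNARE, Syt1 (6.03), the calcium sensor of release, and Cplx1 (5.51), a complexin, had the next largest differences. Snap25 was thus already well above the floor at E14.5, whereas Vamp1 was at 0.726 ± 0.393 CPM.

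Of 15 postsynaptic genes, 10 were called higher in the adult and none in the embryo (median 3.34). After Nrgn came Arc (7.92), an activity-regulated cytoskeletal protein, Camk2a (7.49), the alpha subunit of calmodulin-dependent kinase II, and the scaffold protein gene Dlgap1 (6.38). Camk2a was 989, 1097 and 1253 CPM in adults and 3.33, 6.21 and 7.63 CPM in embryos. The scaffold genes Dlg3 and Dlg4 were not called, at 20.9 ± 1.67 and 52.9 ± 4.44 CPM in adults against 13.7 ± 1.40 and 31.2 ± 4.10 CPM in embryos. Dlg4 encodes PSD-95, the main scaffold of excitatory synapses.

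Receptor genes of the AMPA and GABA-A lists were adult-high. In the AMPA list, which includes auxiliary subunits, it was 9 of 9 (median 3.97), or 6 of 9 with libraries centred on their median, and in the GABA-A list, under both scalings, 10 of 10 (median 4.57). Cacng3, an auxiliary AMPA receptor subunit, differed by 6.94, and the pore-forming subunits Gria3, Gria2 and Gria4 by 4.51, 4.09 and 3.98. Gabrd, the delta subunit of extrasynaptic GABA-A receptors, was 135, 148 and 156 CPM in adults and 0.169, 0.340 and 0.619 CPM in embryos. Gabrb1 (5.20), Gabrb2 (4.70) and Gabra5 (4.64) followed. Only Grin2b and Grin3a of the NMDA receptor genes are in both tables, and both were adult-high (2.90 and 3.74). Grin1, the obligatory subunit, is in the adult table alone, at 60.0 ± 8.98 CPM.

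Ion channels and pumps followed, less uniformly. Of 32 voltage-gated channel genes, 21 were called higher in the adult and none in the embryo. These were 4 of 6 sodium channel genes (median 3.41), 12 of 15 potassium channel genes (3.50) and 5 of 11 calcium channel genes (1.96), or 3 with libraries centred on their median. Scn1a, a sodium channel that is prominent in fast-spiking interneurons, differed by 5.92 and the auxiliary subunit Scn2b by 5.54. The largest potassium channel differences were those of Kcnab2 (5.56), Kcnc2 (5.38), Kcnh1 (5.20) and Kcna2 (5.02), and among calcium channels that of the auxiliary subunit Cacnb4 (5.29). Of 10 chloride transporter and pump genes, 7 were adult-high (median 3.70). Slc12a5, the neuronal KCC2 cotransporter that extrudes chloride, was 44.3, 46.4 and 56.5 CPM in adults and 0.136, 0.391 and 0.687 CPM in embryos. Atp1b1, the beta subunit of the sodium pump, differed by 7.73.

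Transmitter identity genes separated early from late members. In the glutamatergic list, 5 of 8 genes were called higher in the adult and 1 in the embryo (median 3.24). Its summed level was nevertheless lower in adults, at 683 to 772 CPM against 1313 to 1616 CPM, of which Neurod6 held 1404 ± 114 CPM in embryos. Slc17a7, the vesicular glutamate transporter of adult cortical neurons, was 233, 252 and 278 CPM in adults and 1.94, 3.63 and 4.84 CPM in embryos. Grm5 (5.82), a group I metabotropic receptor, was also adult-high.

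Of 11 GABAergic lineage genes, 4 were called higher in the adult and none in the embryo (median 0.46, or −0.02 with libraries centred on their median). Among them were Gad1 (5.86) and Gad2 (3.71), which make GABA, and Slc32a1 (3.06), which packs it into vesicles. Gad1 was 183, 204 and 212 CPM in adults and 1.74, 2.98 and 5.37 CPM in embryos. The 7 lineage factors, such as Dlx1 and Lhx6, were not called. Of 10 interneuron subtype genes, 6 were adult-high and 1 embryo-high, or 2 with libraries centred on their median and 0 in Het libraries (list median 4.60), led by Cck (8.64), Calb1 (8.56), Lamp5 (8.13) and Tac1 (5.71). Pvalb and Vip are in the adult table alone, at 93.5 ± 12.5 and 52.6 ± 4.28 CPM.

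Several activity and growth factor genes were adult-high. Of 9 immediate early genes, 6 were called higher in the adult and 1 in the embryo (median 2.11). The adult-high count was 4 with libraries centred on their median and also in Het libraries. Arc was 267, 379 and 460 CPM in adults and 0.680, 1.06 and 1.46 CPM in embryos. Egr1 (7.23), Nr4a1 (6.90) and Fos (5.99), also induced by activity, were adult-high, and Btg2, an antiproliferative gene that is also in the intermediate progenitor list, was embryo-high (−3.15). The immediate early list summed to 321 to 366 CPM in embryos and 816 to 1017 CPM in adults. In the list of neurotrophins and receptors, 4 of 7 genes were adult-high and none embryo-high (median 3.08), while 2 were embryo-high with libraries centred on their median and 1 in Het libraries. Bdnf, brain-derived neurotrophic factor, was 92.4, 100 and 129 CPM in adults and 0.171, 0.359 and 1.43 CPM in embryos. Its receptor gene Ntrk2 differed by 3.08 and the GDNF family receptor genes Gfra2 and Gfra1 by 5.01 and 3.47.

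The circadian clock list was also adult-high in 9 of 12 genes, with none embryo-high and a median of 3.15. With libraries centred on their median it was 7 genes, and in Het libraries 11. Bhlhe41, a repressor of the clock, was 53.8, 59.2 and 65.9 CPM in adults and 1.06, 1.46 and 2.72 CPM in embryos. Nr1d2 (3.95), Per1 (3.88) and Nr1d1 (3.56) had the next largest differences. The time of day of collection is not named in the labels.

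**Figure D3:**
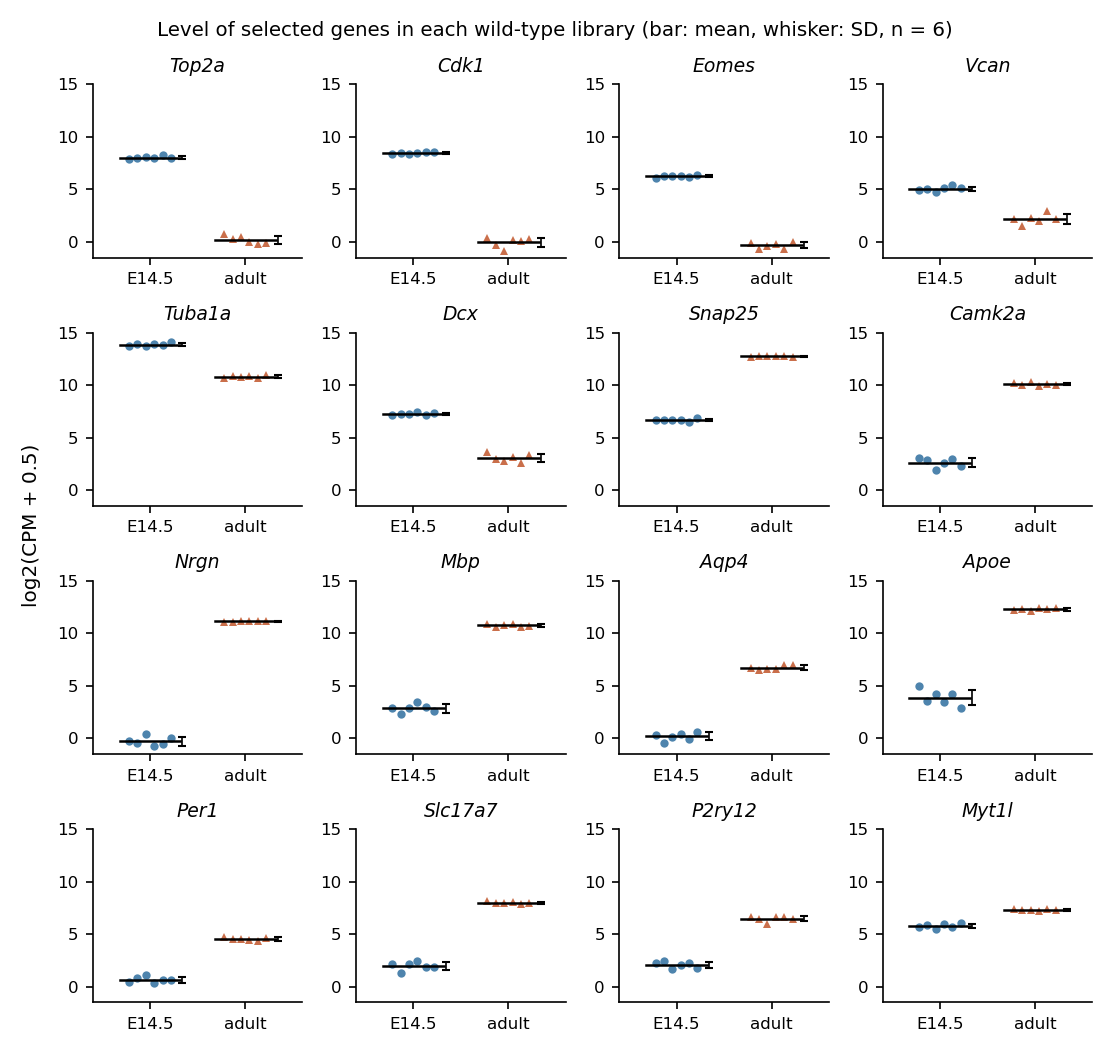
Level of 16 genes in each WT library as log2(CPM + 0.5), E14.5 cortex (blue circles) and adult PFC (orange triangles), with the group mean (bar) and SD (whisker), n = 6 each. For the called genes the groups do not overlap by the calling rule. Myt1l, whose means differ by 1.51, does not overlap either, but is under the 4-fold minimum and was not called.

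Glial genes formed the other large adult-high block. Of 43 genes in 4 glial lists, 34 were called higher in the adult and none in the embryo. Of 13 astrocyte genes it was 11 (median 3.85). Gfap, the intermediate filament of astrocytes, was 125, 135 and 167 CPM in adults, and in the embryos 0, 0 and 0.476 CPM. Ntsr2 (6.75), the water channel Aqp4 (6.57) and the glutamate transporter Slc1a2 (5.79) followed, while the gap junction gene Gja1 (0.28) was not called, being present at both ages at 252 ± 8.41 and 215 ± 61.7 CPM.

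Of 11 genes of myelin and mature oligodendrocytes, 10 were called higher in the adult (median 4.75). Mbp, myelin basic protein, was 1571, 1755 and 1976 CPM in adults and 4.39, 7.01 and 10.4 CPM in embryos. Its difference was 7.92, that of Mal 6.89 and that of Mog 6.27. A further 5 myelin genes are in the adult table alone, among them Mobp at 220 ± 21.1 CPM and Mag at 143 ± 9.18 CPM. The oligodendrocyte precursor list had only 5 genes in both tables, of which Olig1 (5.50) and Bcas1 (5.00) were adult-high and Olig2 (1.43) and Cspg4 (1.07) were not called. Pdgfra, the remaining gene and a marker of these precursors, was not called either and had the only negative difference of the list (−0.12). Of the other genes of that list, 5 are in the adult table alone.

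Of 14 microglia and complement genes, 11 were called higher in the adult (median 3.41). P2ry12, a purinergic receptor of homeostatic microglia, was 63.6, 93.8 and 101 CPM in adults and 2.72, 3.94 and 5.07 CPM in embryos. C1qa, which starts the classical complement cascade, differed by 5.28 and Tmem119 by 4.86. Microglial transcripts were thus detected at E14.5, and the list's summed level was 89.4 to 120 CPM in embryos and 858 to 1058 CPM in adults.

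Blood and border tissue genes and a few vessel genes differed with age as well, and their part in the other results was not tested. Of 14 endothelial and pericyte genes, 3 (21.4%) were adult-high and 1 (7.14%) embryo-high (median 0.48), near the 18.0% and 7.70% of all genes. The tight junction gene Cldn5 (2.61), the transporter Slco1a4 (2.59) and Ly6c1 (5.09) were adult-high, whereas Kdr, the VEGF receptor of growing vessels, was 0.876, 2.42 and 3.36 CPM in adults and 9.68, 21.0 and 22.6 CPM in embryos. Of 6 erythroid genes in both tables, 5 were embryo-high (median −3.87), and their summed level ran from 5633 to 10535 CPM in embryos and from 398 to 614 CPM in adults. The haemoglobin genes are near-identical in pairs, so counts of single members are uncertain. The embryonic globin Hbb-y is in the E14.5 table alone, at 3706 ± 1136 CPM.

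Of 6 choroid plexus genes, 3 were embryo-high and 1, Enpp2, adult-high (median −3.01). Ttr varied between the embryo libraries, at 1361, 2388 and 3904 CPM in embryos, against 0, 0.295 and 1.02 CPM in adults. Folr1 (−4.93) and Sostdc1 (−4.15) are further markers of that tissue. Of 12 meningeal and fibroblast genes, 4 were embryo-high and none adult-high (median −1.08, or 1.19 with ribosomal protein scaling), led by the collagen gene Col3a1 (−4.38) and the proteoglycan gene Lum. Summed, this list held 245 to 505 CPM in embryos and 109 to 140 CPM in adults. In the striatal list, the adult-high genes were Ppp1r1b (5.14), which encodes DARPP-32 and is also expressed in deep cortical layers, and Penk (4.95). These were 2 of 8 genes (25%), against 18.0% of all genes. Drd1 (1.24) and Adora2a (1.81) were not called.

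**Figure D4:**
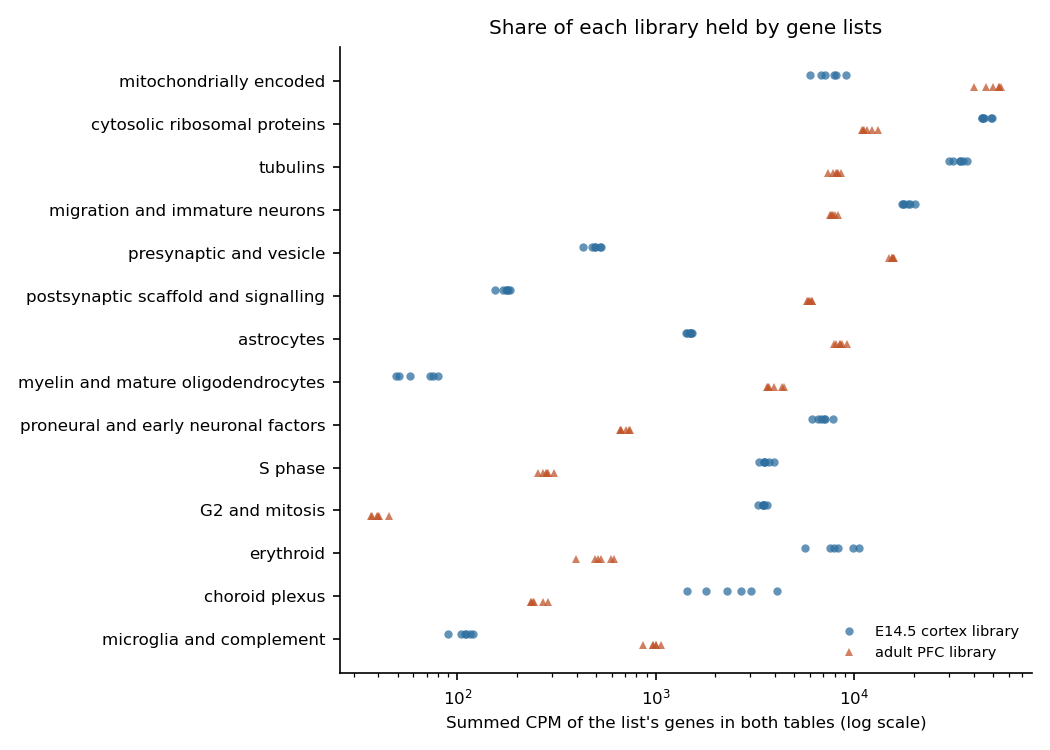
Summed CPM (log axis) of the genes of 14 lists that are in both tables, for each E14.5 (blue circles) and adult (orange triangles) WT library. Groups do not overlap for any list shown; mitochondrially encoded genes sum to 40093 to 54691 CPM in adults and 6003 to 9134 CPM in embryos, and ribosomal protein genes, whose direction is lost where they set the scale, to 10939 to 13122 and 43969 to 49400 CPM.

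The most abundant transcripts differed in class. The 10 genes with the largest share of counts, a measure that grows with transcript length, held 8.43% ± 0.39 of counts in adults and 10.2% ± 0.24 in embryos (SD, n = 6). In the adults they included mt-Co1, mt-Cytb, mt-Nd1, Fth1, Actb, Snap25, Ubb, Calm2 and Apoe. In the embryos they were Actb, Tuba1a, Eef1a1, Ubb, Tubb5, Tmsb4x, Hspa8, Ptma, Rplp0 and Stmn1. Actb, a cytoskeletal actin, held 2.53% of counts in embryos and 0.718% in adults. Calmodulin, ubiquitin, tubulin and ribosomal protein genes have near-identical copies in the genome, so their single values are uncertain.

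With the deposited scaling, ribosomal protein and mitochondrially encoded genes differed in opposite directions. Of 18 cytosolic ribosomal protein genes, 12 were called higher in the embryo and none in the adult (median −2.12, which is 0.15 when the same genes set the scale). Rplp0, of the ribosomal stalk, was 498, 512 and 573 CPM in adults and 5271, 5552 and 6188 CPM in embryos. Rps2 (0.63) and Rpl13 (1.16), both named after their values were seen, had positive differences. The elongation factor gene Eef1a1 lay on the embryonic side, with a difference of −2.64. All 10 mitochondrially encoded genes were adult-high (median 2.89), and mt-Co1, a subunit of cytochrome oxidase, was 12038, 15438 and 16445 CPM in adults and 1592, 1960 and 2300 CPM in embryos. Of 20 nuclear genes of oxidative phosphorylation, 3 were adult-high, namely Uqcrfs1 (3.38), Cyc1 (2.98) and Cox5a (5.81), and none embryo-high (median 0.55). This share, 15% against 18.0% of all genes, was near the background. The embryonic level of Cox5a, 7.62 ± 4.10 CPM, was the lowest of that list.

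Of 18 glycolysis and lactate genes, 5 (27.8%) were adult-high and 1 (5.56%) embryo-high (median 1.02), against 18.0% and 7.70% of all genes. The neuronal enolase Eno2 (5.24), the phosphofructokinase Pfkp (4.90) and the hexokinase Hk1 (4.43) were adult-high. Hk2, the hexokinase of many growing tissues, was the embryo-high member, at 1.70, 2.36 and 3.50 CPM in adults and 21.2, 23.3 and 27.3 CPM in embryos.

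Regulators of RNA and chromatin included a few genes with large differences among many with small ones. Ptbp1, a splicing repressor that progenitors express, was 6.72, 7.47 and 8.22 CPM in adults and 161, 178 and 191 CPM in embryos. In the list of 18 RNA-binding splicing factors, 3 genes (16.7%) were embryo-high and 3 (16.7%) adult-high, against 7.70% and 18.0% of all genes. The adult-high genes were Celf4 (4.90), Rbfox3 (3.73), which encodes the neuronal antigen NeuN, and Rbfox1 (3.15). Of 8 fetal RNA regulators and let-7 targets, 4 were embryo-high and none adult-high (median −2.08, or 0.19 with ribosomal protein scaling): the RNA-binding genes Igf2bp2 (−4.90) and Igf2bp3 (−4.13), the cyclin Ccnd2 (−3.87) and Mycn (−3.14). Of 16 subunits of BAF, a complex that remodels nucleosomes, 4 were embryo-high and none adult-high (median −0.34, or 1.94 with ribosomal protein scaling). They were Actl6a (−3.91), Arid1a (−2.38), Dpf2 (−2.12) and Ss18 (−2.01), the last 2 with positive differences under that scaling. Of 11 DNA methylation genes, 3 were embryo-high and 1, Gadd45b (4.76), adult-high (median −0.53, or 1.74 with ribosomal protein scaling). The maintenance methyltransferase Dnmt1 differed by −2.57. With libraries centred on their median the embryo-high counts were 6 for the RNA-binding list and 5 for the DNA methylation list, and in Het libraries 2 BAF genes were embryo-high.

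Of 12 imprinted growth genes, 3 were embryo-high and 2 adult-high, or 1 adult-high with libraries centred on their median (list median 0.06, or −0.41 with libraries centred on their median). Grb10, an adaptor that restrains growth factor signalling, was 7.28, 9.47 and 11.6 CPM in adults and 263, 338 and 488 CPM in embryos, and Cdkn1c, a cell-cycle inhibitor, differed by −3.86. Gnas lies in a locus of overlapping transcripts, so its low listed level of 7.75 ± 0.88 CPM in adults and 0.580 ± 0.208 CPM in embryos is uncertain. Of 18 axon guidance genes, 3 (16.7%) went each way, against 18.0% of all genes in the adult direction and 7.70% in the embryonic one. With libraries centred on their median, 3 were adult-high and 5 embryo-high. The list median was −0.33, or 1.94 with ribosomal protein scaling. The receptor gene Epha3 (−3.39) lay on the embryonic side and Sema7a (2.86), Slit1 (2.70) and Unc5c (2.60) on the adult side.

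The MYT1 family, to which the gene knocked out in the series belongs, differed in direction. Myt1l (ENSMUSG00000061911, chromosome 12 from 29528384 to 29923213 on the plus strand) was 146, 156 and 168 CPM in adults and 45.9, 54.4 and 66.6 CPM in embryos. Its groups did not overlap, but the difference of 1.51 is under the 4-fold minimum. Myt1 was 0.587, 1.35 and 1.90 CPM in adults and 29.9, 35.1 and 37.0 CPM in embryos, a difference of −4.31. St18, the remaining member, was 1.56, 1.98 and 3.55 CPM in adults and 13.9 to 18.7 CPM in embryos (−2.65). Among corepressor genes of the same list, Hdac1, a histone deacetylase, differed by −3.12 and Rest, a repressor of neuronal genes, by −2.52, and the list's median of −1.68 became 0.59 with ribosomal protein scaling.

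Cytoskeletal genes differed in both directions. Of 12 tubulin genes, 6 were embryo-high and 2 adult-high, or 1 adult-high with libraries centred on their median (list median −1.92, or 0.35 with ribosomal protein scaling). The alpha tubulin Tuba1a was 1631, 1796 and 2004 CPM in adults and 13268, 15024 and 17221 CPM in embryos, while Tuba4a was 794 ± 33.4 and 52.9 ± 4.91 CPM. Tuba1c (−5.01), Tubb2b (−3.86) and Tubb5 (−3.22) were embryo-high and Tubb4a (2.24) adult-high. Of 11 neurofilament and microtubule-associated genes, 6 were adult-high and none embryo-high (median 2.42). Nefl, the light neurofilament subunit, was 417, 456 and 519 CPM in adults and 3.20, 3.81 and 4.25 CPM in embryos, and Nefm differed by 5.76. In the list of perineuronal net and matrix genes, 5 of 9 were adult-high and 2 embryo-high (median 3.44), but the summed level was 852 to 921 CPM in adults and 965 to 1290 CPM in embryos, of which Ncan, a proteoglycan named after its values were seen, held 370 ± 20.9 and 1015 ± 114 CPM.

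The ratio of 2 genes within a library depends little on the library's scaling, except where a member is near the 0.5 CPM added before the ratio was taken, as Slc12a5 and Scn1a are in embryos. Pairs of related genes were compared that way, and a pseudocount of 2 moved 5 of 18 ratio differences by more than their SD. Replacing WT by Het libraries moved 13 of the 18 by more than that. Of 22 pairs chosen as an early and a late member of a family, 18 had both members in both tables. In 16 of the 18, the log2 ratio of early to late member was lower in every adult library than in every embryo library. The pairs were chosen for that order, and members were chosen with earlier results of these data known, so their shared direction is no independent support. Of single genes, 73.0% did not overlap between the ages, 5586 of them higher and 3950 lower in adults. That share covers both directions and single levels, so it is not a background for the ratios. An exception was Dlg3 to Dlg4, at −1.16 ± 0.277 in embryos and −1.32 ± 0.182 in adults (SD, n = 6 each).

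The largest shift was that of the lecticans, proteoglycans of the brain matrix. The log2 ratio of Vcan, the versican of immature matrix, to Bcan, brevican, was 3.36 ± 0.254 in embryos and −5.20 ± 0.467 in adults. The vesicular glutamate transporters came next, with Slc17a6 to Slc17a7 at 3.16 ± 0.384 and −3.98 ± 0.157. Slc17a6 itself differed by only −1.12, so that most of the shift lay in Slc17a7.

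Tuba1a to Tuba4a went from 8.13 ± 0.112 to 1.18 ± 0.101, so the early member remained the more abundant at both ages. Per kilobase of longest transcript the 2 log2 ratios were 8.79 and 1.83. The beta tubulins Tubb2b to Tubb4a went from 2.32 ± 0.149 to −3.77 ± 0.129. Among fatty acid-binding proteins, Fabp7, of radial glia, to Fabp3 went from 5.02 ± 0.169 to −0.96 ± 0.220.

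Pairs that went from early to late dominance also included the BAF subunits Actl6a to Actl6b, at 3.01 ± 0.342 in embryos and −2.71 ± 0.153 in adults. These encode the progenitor and the neuronal form of the BAF53 subunit. The chloride cotransporters Slc12a2, which loads chloride into neurons, to Slc12a5 went from 3.74 ± 0.364 to −1.29 ± 0.289. The sodium channels Scn3a to Scn1a went from 2.61 ± 0.335 to −1.95 ± 0.176, and Camk2b to Camk2a from 1.34 ± 0.471 to −1.59 ± 0.0845. In each of these 4 pairs the sign of the per-kilobase ratio also changed. The complexins Cplx2 to Cplx1 went from 1.13 ± 0.239 to −0.36 ± 0.116, but per kilobase Cplx1 was the higher at both ages, with log2 ratios of −0.040 and −1.53.

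Other pairs shifted while the early member stayed at or above the late one on average. The microtubule-associated proteins Map1b to Map1a went from 7.16 ± 0.129 to 2.56 ± 0.118. The glial glutamate transporters Slc1a3 to Slc1a2 went from 3.94 ± 0.228 to 0.09 ± 0.157, near equal counts.

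The splicing factors Ptbp1 to Ptbp2 went from −0.22 ± 0.0866 to −2.91 ± 0.225, and both genes were lower in adults (−4.48 and −1.79). Smaller shifts were those of the thymosins Tmsb10 to Tmsb4x, from −1.55 ± 0.0782 to −2.37 ± 0.0759, and of the BAF45 pair Phf10 to Dpf1, from −1.51 ± 0.277 to −2.36 ± 0.213. The other 4 chosen pairs could not be computed because 1 member is in a single table.

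**Figure D5:**
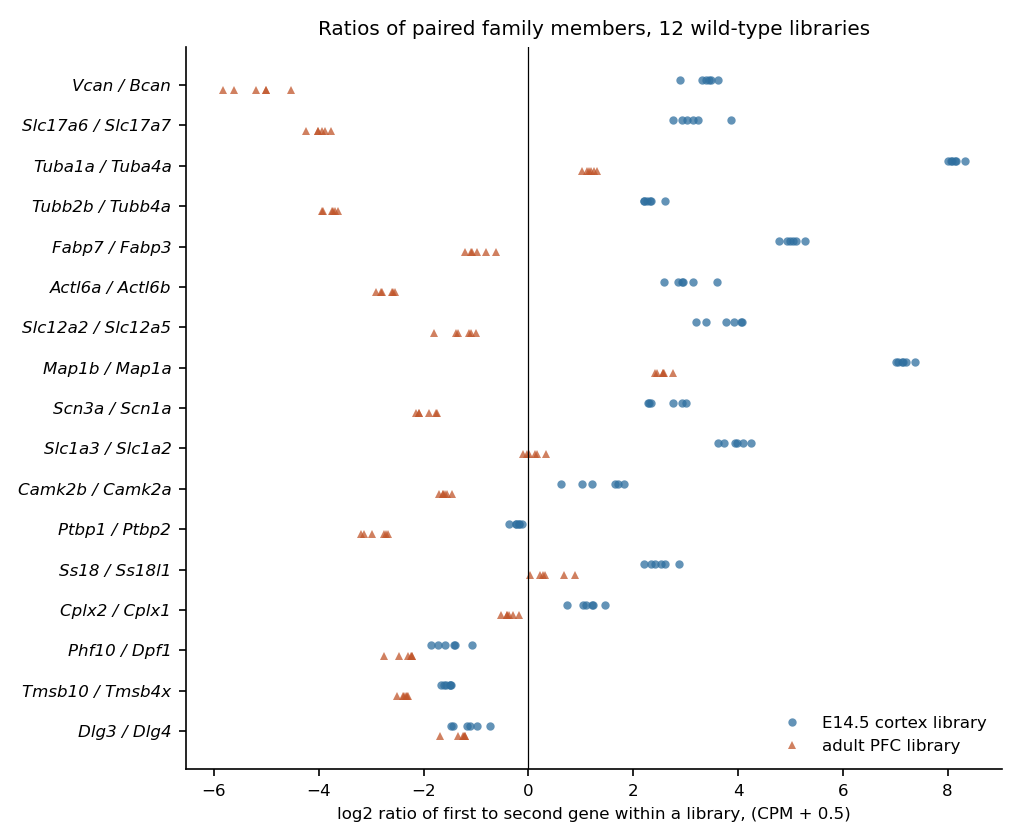
Log2 ratio of the first to the second gene of 17 pairs within each WT library, computed from CPM + 0.5, for E14.5 cortex (blue circles) and adult PFC (orange triangles). In 16 pairs every adult library lies to the left of every embryo library; Dlg3 to Dlg4, at the bottom, overlaps.

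Called genes differed a little in size and base composition. The genomic span of genes called higher in the adult had a median of 28.5 kb, against 22.8 kb for those called higher in the embryo and 25.7 kb for the rest. Spans over 100 kb were found in 22.9% of adult-high genes, 14.4% of embryo-high genes and 14.3% of the rest. Median length of the longest transcript was 3.46, 3.48 and 3.50 kb. Genes were also split into 3 equal classes by the GC content of that transcript, and 24.0% of the highest class were called higher in the adult, against 13% of the middle and 17.2% of the lowest class. Calls in the embryonic direction were 6.96%, 10.0% and 6.13%. Across genes, the difference had a Spearman correlation of 0.05 with GC content and 0.00 with transcript length, given as a description, since genes share libraries and are not replicates.

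Genes listed for 1 age only stand outside these counts. The E14.5 table held 775 genes that are absent from the adult one, which held 1033 of its own. Of the list genes, 29 were in the E14.5 table alone and 39 in the adult table alone. In the E14.5 table these included the progenitor factor Neurog2, at 41.7 ± 6.36 CPM, and the RNA-binding gene Igf2bp1, at 86.8 ± 11.3 CPM, and in the adult table the astrocyte gene S100b, at 228 ± 21.3 CPM, and the activity gene Egr3, at 68.3 ± 7.45 CPM.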

How the data were processed

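RNA was measured by sequencing in 12 WT libraries, 6 from adult PFC and 6 from E14.5 cortex. Per the labels' protocols, extraction used Zymo reagents and library preparation the SMARTer Ultra Low RNA kit. Trimmomatic, Bowtie2, STAR, HTSeq and the mm10 build are named per the submitters' processing notes. Their roles, settings and any use of strand in counting are unknown here. The deposited values are log2 CPM that the authors adjusted with RUVr, a method that removes unwanted variation, separately in each table. The values are spaced as log2 CPM with a prior count of 2 would be, and CPM was recovered from them. The whole numbers recovered this way are not raw counts, so sequencing depth is unknown and no count test was run. Recovered totals were 28885107 to 30811856 in the E14.5 libraries and 19995552 to 20902291 in the adult ones. The smallest step is 0.0339 CPM for embryos and 0.0489 CPM for adults, so values under 3 steps (0.102 and 0.147 CPM) are at the floor.

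Genes were joined by Ensembl identifier, averaged as log2(CPM + 0.5) over the 6 libraries of a group and called by the 4-fold and no-overlap rule. The SD covers the spread between libraries that was left after the authors' adjustment, and pooling of animals is not stated. Named genes were the 12 largest differences in each direction, both members of each pair, up to 4 genes of each list with the largest differences, the MYT1 family and the 10 genes with the highest CPM in each group. Genes outside that rule, named after their values were seen, were Bsn, Btg2, Dclk1, Dll3, Dlx1, E2f1, Emx2, Gja1, Lhx6, Ncan, Neurod6, Pdgfra, Rpl13, Rps2, Stmn3, Tac2 and Tbr1, together with the genes given for a single table. Some named genes are not reported here. The members and lists were chosen with earlier results of these data known. Promoters came from RefSeq on GRCm38.p6 and gene positions from GENCODE vM21. The calling rule was tried on simulated data with no difference in normalisation between the groups, so that trial does not bear on the separate scaling. The alternatives tried were other pseudocounts, filters, scalings, fold minimums, libraries and genotypes.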

Additional observations from a re-analysis of the deposited data

Results flagged for a closer look

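Groups of 6 libraries were examined for 1 library standing apart from the other 5 by more than Dixon's 95% critical value. This held for 31 of 456 groups, and chance flags about 1 in 20. Libraries are named by the sex and number in their label, and values are CPM with the range of the other 5.

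Among the E14.5 libraries, female F12 stood apart for Calb1, at 1.57 CPM against 0.0342 to 0.378, Cldn5, at 13.5 against 3.32 to 5.58, Notch2, at 103 against 69.9 to 80.1, and Nes, at 62.5 against 74.5 to 79.0. Female F06 was high for Gadd45b, at 1.08 CPM against 0.613 to 0.715, and Kcnc2, at 0.609 against 0.0681 to 0.205, and low for the collagen gene Col3a1, at 28.9 against 44.7 to 57.2, and the vessel receptor gene Kdr, at 9.68 against 17.9 to 22.6. Female F09 was high for Arid1a, at 151 CPM against 128 to 131, and Bcas1, at 0.855 against 0.238 to 0.374, and low for Nr4a1, at 0.342 against 0.825 to 1.19. Single genes stood apart in male M03 (Fzd1, 31.6 CPM against 25.9 to 26.8), female F04 (Nefm, 3.78 against 4.96 to 5.65) and female F05 (Scn3a, 6.70 against 8.24 to 9.04).

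Among the adult libraries, female F06 was high for Cox5a, at 478 CPM against 377 to 409. The same library was low for Dlgap1, at 178 CPM against 232 to 258, Gabrb2, at 26.4 against 37.1 to 43.5, Hpcal4, at 441 against 499 to 528, and Spock1, at 113 against 142 to 163. Male M03 was high for St18, at 3.55 CPM against 1.56 to 2.08, and low for Cacna2d3, at 28.2 against 31.4 to 32.6, Hdac1, at 33.2 against 39.8 to 43.2, Mfap4, at 3.07 against 5.11 to 6.70, and Nrep, at 64.1 against 79.9 to 88.1. Female F04 was high for Igf2bp2, at 1.22 CPM against 0.584 to 0.684, and low for Tuba4a, at 729 against 793 to 820, and Tubb5, at 773 against 885 to 925. Male M07 was low for P2ry12, at 63.6 CPM against 85.5 to 101, Stmn1, at 1710 against 1860 to 1956, and mt-Nd4, at 3127 against 3796 to 4238. Male M11 was low for Ube2c, at 0.343 CPM against 1.02 to 1.36.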

How the results depend on the processing

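Depth is unknown, no test spans the tables, and levels at the floor carry no fold. No paired analysis was possible because replicate numbers do not pair animals across ages and the results come from no test. With the deposited scaling 2358 genes were called higher in the adult and 1006 in the embryo. Leaving out 1 library at a time gave 2352 to 2372 and 995 to 1019. With the 4 embryos that share 1 identifier prefix against the 6 adults, the counts were 2350 and 996. The counts moved by over 1.5 times with libraries centred on their median (1664 higher in the embryo), with ribosomal protein scaling (4394 and 116), with ranks alone (1515 higher in the embryo, 52.9% of calls in the adult direction), with a 2-fold minimum (3916 and 2684) and with an 8-fold minimum (1208 and 369). Ribosomal protein scaling changed the sign of 15 of 48 list medians, among them the ribosomal protein list (0.15) and the fatty acid-binding protein and thymosin list (0.079). Under it 9 named embryo-high genes lost their call and took a positive difference near 0: Bcl11b (0.19), Dcn (0.14), Dnmt3a (0.14), Dpf2 (0.15), Plagl1 (0.0063), Pou3f3 (0.10), Rps4x (0.0077), Ss18 (0.27) and Tmsb10 (0.079). That scale is set by genes that are themselves lower in the adult with the deposited scaling. Of 212 named calls, 162 were kept under it, 206 with centring, 168 with ranks alone and 205 in Het libraries. Pseudocounts of 0.1 and 2, filters of 1 and 5 CPM and females alone kept both counts within 1.5 times.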
